A study of Homo sapiens with 2 samples.

Results

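The intergenic long noncoding RNAs (lncRNAs) described here are 1170 array probes out of 2002 distinct lncRNA probes in the listed rows of the study's tables of higher and lower lncRNAs, and out of 58965 non-control probes on the arrays. A probe was included when every one of its rows gave the relation to coding genes as intergenic. Of the 1170 probes, 616 came from the table of lncRNAs higher after LBH589 and 554 from the table of lower ones. They carry 1008 distinct names. The probes were thus chosen by the same LBH589 against DMSO contrast that is described below, so their directions and the sizes of their differences are a description with no test.

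The samples were cultures of SK-NEP-1, an established human cell line that the labels give as a Wilms tumor of the kidney. One culture received 100 nM LBH589 (panobinostat), a pan inhibitor of histone deacetylases, for 24 h, and the control culture received an equal volume of DMSO, the solvent. RNA depleted of rRNA was labeled with Cy3 and hybridized to 1 Arraystar Human LncRNA v3.0 array per condition. Each value therefore has no replicate check, and differences between the cultures, RNA preparations and hybridizations cannot be told apart from those of the treatment. In RNA from a whole culture, fewer cells of a type and less RNA per cell cannot be told apart.

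The tables name only genes that differed between the arrays, so the identity of the line could not be read from them. Of 10 genes typical of Ewing sarcoma, 3 were named, and their probes were all well above background with DMSO. NKX2-2, a homeobox transcription factor, had signals of 290 with DMSO and 6.42 with LBH589. CCND1, which encodes cyclin D1, had signals of 3993 and 457. CAV1, which encodes caveolin 1, was read by probes at 77441 and 2445 and at 4203 and 95.8. None of the 9 genes typical of Wilms tumor and kidney progenitors was named by the tables, so these were not analysed here.

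Intergenic lncRNAs are transcribed by RNA polymerase II from DNA between protein-coding genes, and most are capped, spliced and polyadenylated without encoding a protein. Some act in the nucleus on chromatin, some are hosts that release microRNAs or small nucleolar RNAs when they are processed, and many have no known role. They are generally scarcer and more restricted to particular tissues than mRNAs. Histone deacetylases remove acetyl groups from histone tails, and their inhibitors raise histone acetylation and change the transcription of many genes in both directions.

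Each lncRNA is read by a probe of 60 bases, and the probe sequences show which values are independent readings. The sequences below are those of some of the lncRNAs with large differences, of some pairs whose agreement or disagreement is described later, and of some members of the gene lists. Capitals mark the stretch that probes share, or, in RP11-325I22.2 probe 1, XLOC_000027 probe 1 and OTX2-AS1 probe 2, a polyadenylation signal hexamer (AATAAA or ATTAAA). RP11-325I22.2 (chr5:1363697-1380182, minus strand, hg19) is a GENCODE transcript whose probes 2 and 3 have their last 50 bases in common, while probe 1 reads other sequence.
RP11-325I22.2 probe 1: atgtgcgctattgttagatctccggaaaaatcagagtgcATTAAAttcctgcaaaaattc
RP11-325I22.2 probe 2: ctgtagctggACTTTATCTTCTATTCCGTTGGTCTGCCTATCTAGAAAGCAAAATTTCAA
RP11-325I22.2 probe 3: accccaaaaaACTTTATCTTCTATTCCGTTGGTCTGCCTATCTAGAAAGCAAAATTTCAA
The transcripts LOC100652730 (chr20:61405473-61408208, minus strand) and BC141903 (chr20:61405787-61406753, minus strand) overlap and share 52 bases of their probes.
LOC100652730: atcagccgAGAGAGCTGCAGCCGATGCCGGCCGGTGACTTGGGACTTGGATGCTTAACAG
BC141903: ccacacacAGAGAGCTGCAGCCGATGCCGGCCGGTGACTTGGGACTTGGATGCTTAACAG
BX284650.1 (chr1:143744199-143745417, minus strand) and RP11-495P10.2 (chr1:147930762-147931881, minus strand) lie apart on chromosome 1, yet 51 bases are the same in their probes.
BX284650.1 probe 1: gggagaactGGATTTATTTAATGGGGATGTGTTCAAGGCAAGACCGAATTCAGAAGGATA
BX284650.1 probe 2: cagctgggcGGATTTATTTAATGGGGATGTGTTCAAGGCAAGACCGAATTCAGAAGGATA
RP11-495P10.2: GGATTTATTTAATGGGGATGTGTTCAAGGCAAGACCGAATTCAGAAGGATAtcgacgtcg
AK094117 (chr11:110225920-110278336, plus strand) and an overlapping GENCODE transcript (chr11:110225924-110252710, plus strand) share 28 bases.
AK094117: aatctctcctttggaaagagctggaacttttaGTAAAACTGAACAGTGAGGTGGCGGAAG
GENCODE transcript overlapping AK094117: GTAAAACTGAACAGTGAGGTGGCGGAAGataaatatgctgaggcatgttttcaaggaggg
XLOC_000027 (chr1:2730632-2734321, plus strand) was read at 2 places with no stretch in common.
XLOC_000027 probe 1: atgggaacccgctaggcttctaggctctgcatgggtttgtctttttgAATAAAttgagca
XLOC_000027 probe 2: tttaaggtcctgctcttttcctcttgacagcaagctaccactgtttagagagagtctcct
XLOC_005361 (chr6:80247346-80251560, plus strand) has 1 probe.
XLOC_005361: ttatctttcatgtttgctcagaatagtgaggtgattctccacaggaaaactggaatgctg
RP11-693N9.2 (chr11:104772276-104788872, minus strand, for probe 2) is shown because its probes differed in opposite directions.
RP11-693N9.2 probe 1: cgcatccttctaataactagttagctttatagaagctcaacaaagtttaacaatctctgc
RP11-693N9.2 probe 2: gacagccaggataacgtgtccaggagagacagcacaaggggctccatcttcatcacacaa
RP11-693N9.2 probe 3: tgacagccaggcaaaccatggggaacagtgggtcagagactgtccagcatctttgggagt
MIR7-3HG (chr19:4769117-4772568, plus strand) and OTX2-AS1 (chr14:57279901-57397550, plus strand) are members of the gene lists below.
MIR7-3HG probe 1: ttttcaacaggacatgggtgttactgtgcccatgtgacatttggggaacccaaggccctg
MIR7-3HG probe 2: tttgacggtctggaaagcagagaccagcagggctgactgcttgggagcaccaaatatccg
MIR7-3HG probe 3: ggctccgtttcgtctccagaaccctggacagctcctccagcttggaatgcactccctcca
OTX2-AS1 probe 1: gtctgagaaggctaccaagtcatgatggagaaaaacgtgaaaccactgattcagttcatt
OTX2-AS1 probe 2: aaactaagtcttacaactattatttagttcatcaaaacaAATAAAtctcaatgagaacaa
LINC00237 (chr20:21074199-21086975, minus strand, for probe 1) shows how far values of nearly the same probe can part when 1 side is dim.
LINC00237 probe 1: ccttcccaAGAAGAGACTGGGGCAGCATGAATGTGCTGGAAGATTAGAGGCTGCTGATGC
LINC00237 probe 2: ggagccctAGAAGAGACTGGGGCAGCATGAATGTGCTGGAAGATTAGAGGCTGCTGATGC

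The probes of intergenic lncRNAs were poor in G and C, with a median GC content of 40%, against 45% in the listed mRNA probes and 40% in the probes of other lncRNA classes. AATAAA or ATTAAA, searched on the strand on which the probe is written, was present in 176 of the 1170 probes (15.0%), in 12.9% of probes of other lncRNA classes and in 4.09% of mRNA probes, and in 9.18% of all 3956 listed probes of that length. A match of these letters is a description of the probe and not of a used site. Among probes of higher lncRNAs 16.7% held a hexamer and among those of lower lncRNAs 13.2%.

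The annotated RNAs were 91 to 70890 bases long, with a median of 661. GENCODE contributed 670 of the 1170 probes, the lincRNA catalog of Cabili and colleagues 264, UCSC known genes 110 and RefSeq 65. Smaller sources gave the rest, among them 11 probes of ultraconserved regions, which carry 10 names. Of the probes from the Cabili catalog 59.5% read higher RNAs, and of the 41 probes from the catalog of Khalil and colleagues 36.6%. The plus strand held 622 probes (52.6% higher) and the minus strand 548 (52.7% higher). By chromosome the share of higher probes ran, among chromosomes with at least 20 probes, from 33.8% of 68 probes on chromosome 8 and 39.2% of 51 on chromosome 4 to 30 of 40 probes on chromosome 14 and 79.3% of 29 on chromosome 16. Probes of 1 gene or of 1 locus share a source, so these shares are not counts of independent genes.

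The scanner signal of each spot, after subtraction of local background, is given in arbitrary units. The 75th percentile of the signal was 189 with DMSO and 108 with LBH589, and differences are therefore given as log2 signal relative to that percentile, LBH589 minus DMSO. A level on the array depends on the probe as well as on the RNA, so signals are compared between arrays and not between probes. The number after each difference is the error that the scanner software gives for the pair of spots, which covers the spots only. Where a spot was not well above background on 1 array, the lowest signal well above background there (21.3 on the DMSO array, 14.5 on the LBH589 array), or the spot's own signal if higher, took its place, and the result is written as at least N-fold.

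After LBH589, the intergenic lncRNAs of the higher table went from mostly near background to the upper part of the array, and those of the lower table went the other way. The median higher probe stood at the 26.9th percentile of the DMSO array and at the 72.4th of the LBH589 array. Signals of at least 1000 were reached by 10 of these 614 unmarked probes with DMSO and by 61 with LBH589. The median lower probe stood at the 58.3rd percentile of the DMSO array and at the 22.1st of the LBH589 array, and the number at or over 1000 went from 69 to 9 of 547. These positions follow from how the probes were chosen.

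Most values had 1 dim side. Of the higher probes, 259 (42.0%) were well above background with DMSO and with LBH589, at a median signal of 74.0 on the DMSO array, 332 on the LBH589 array and a median difference of 2.57. A further 355 (57.6%) were well above background only after LBH589, with median signals of 5.78 and 35.1, and their median difference of 3.09 shrank to 1.52 when the dim side was set to its limit. Of the lower probes, 190 (34.3%) were measured on both arrays, from a median signal of 623 to 51.0 (median difference -2.25), and 355 (64.1%) only on the DMSO array, with median signals of 33.2 and 4.28. For 78 of these last 355 no fold can be given. Another 2 lower probes were above background on neither array, and 9 probes lay on spots that the scanner software marked as not uniform.

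The median difference was 2.92 over the 614 higher probes and -2.16 over the 547 lower ones, and 2.18 and -1.53 with dim sides at their limit. Over all 41574 probes above background on either array the median was -0.01, also with dim sides at their limit. At least 2-fold higher were 493 of the 1159 intergenic probes that could be counted (42.5%), where 12.3% of all 41574 probes were. At least 2-fold lower were 298 (25.7%), where 10.2% of all probes were. At 5-fold the counts were 271 higher (23.4%, all probes 2.49%) and 115 lower (9.92%, all probes 1.65%). With no scaling the 5-fold counts were 133 higher and 273 lower, and with normexp background correction of median spot signals followed by quantile normalization they were 94 and 39. Because the tables were selected on this contrast, nothing is read from the excess over all probes. Of the probes past 2-fold 62.3% were higher, and of those past 5-fold 70.2%. Without scaling between the arrays these shares were 49.7% and 32.8%. With dim spots at their own value all 614 higher and all 547 lower probes were past 2-fold, of which 52.9% were higher, and the 5-fold counts also grew.

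**Figure D1:**
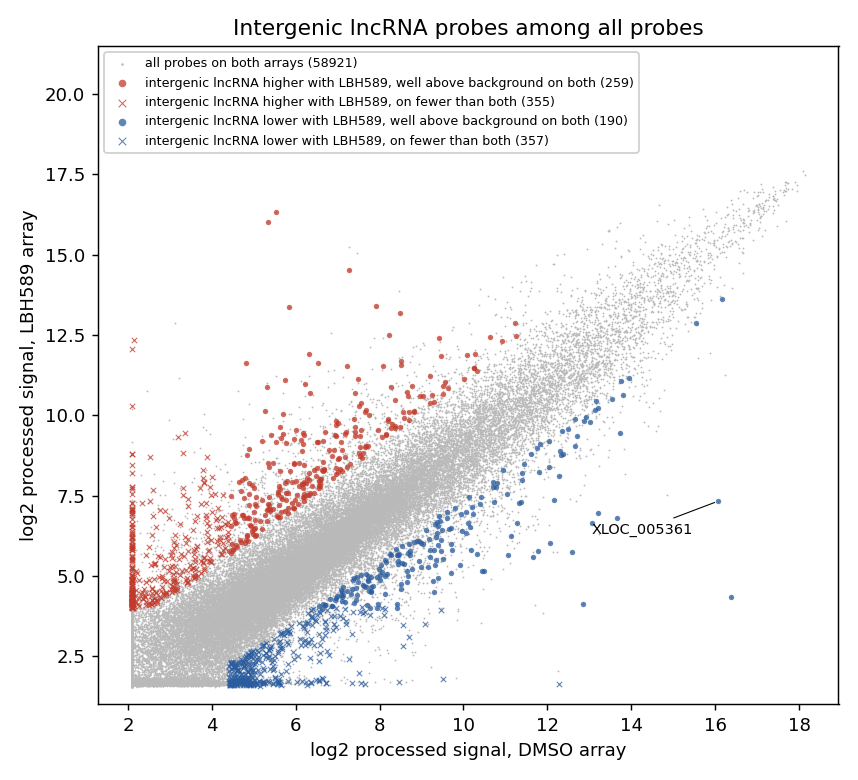
Scanner signal of each probe with DMSO (x axis) and with LBH589 (y axis), both as log2 of arbitrary units, for all probes in grey and for the unmarked intergenic lncRNA probes in red (614 higher after LBH589) and blue (547 lower), with dots where both arrays were well above background and crosses elsewhere. The coloured probes flank the grey diagonal, and many crosses lie at the lowest signals of 1 array.

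The difference just inside the choice was 1.86 at the upper end, for CTC-497E21.4 with signals of 1276 and 2659, and -1.35 at the lower end, for NKAPP1 with signals of 22.1 and 4.99. The study's own normalized values are on another scale. In that deposited table all 1159 of the unmarked intergenic probes it holds had the same sign, the smallest rise was 2.003 and the smallest fall -1.77 on the log2 scale. There were 2037 probes of any class in it with a rise at least that large and 2248 with a fall at least that large. Of the intergenic probes, 161 were at the floor of its values with DMSO and 218 with LBH589.

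Compared with the 830 unmarked probes of the other lncRNA classes in the same tables (those with another relation to coding genes), the intergenic ones were as often higher, at 52.9% against 52.8%. The median differences were 2.92 and -2.16 for intergenic probes and 2.82 and -2.24 for the others. Intergenic probes were less often measured on both arrays, with 42.2% against 51.6% among higher and 34.7% against 45.7% among lower probes. Their annotated RNAs had median lengths of 638 and 698 bases, against 756 and 753. These are descriptions of listed probes, and no difference between the classes was tested.

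RP11-325I22.2, with the largest rise measured on both arrays, gave a signal of 46.0 with DMSO and 81677 with LBH589 at probe 1, a difference of 11.59 ± 0.24. Its other probes, which share most of their sequence with each other and none with probe 1, went from 28.1 to 3178 (7.62 ± 0.30) and from 79.2 to 3802 (6.38 ± 0.22). The 3 probes rose together but by sizes that differed by up to 5.21 on the log2 scale. The 6 spots nearest to probe 1 had a median signal of 20.2 on the LBH589 array and none above 787.

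XLOC_000027, a lincRNA of the Cabili catalog with no known role, rose from 40.7 to 66834 at probe 1 (11.48 ± 0.25) and from 57.6 to 10552 at probe 2 (8.32 ± 0.23). Around probe 1 the nearest spots had a median of 29.0 and a highest signal of 117. Both names were thus read by probes with different sequence that moved the same way. XLOC_005215 (chr6:26724185-26752237), from the same catalog, rose from 154 to 23758 (8.06 ± 0.21) at its only probe.

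The next ranks held lncRNAs of several sources. XX-FW80269A6.1 (chrX:150684023-150684717) went from 39.7 to 1870 (6.36 ± 0.26). The ultraconserved region uc.392 (chr15:70392134-70392389), a stretch identical between human and rodent genomes, went from 241 to 10880 (6.29 ± 0.21), while its second probe, on the minus strand, read 13.98 and 36.4, at least 2.97-fold higher. LOC100652730 went from 53.6 to 2197 (6.15 ± 0.23) and BC141903 from 93.3 to 3146 (5.87 ± 0.21). These last values come from 1 place on chromosome 20 and share 52 bases, so they count as 1 reading. Among the 6 spots nearest to that of BC141903 on the LBH589 array 1 read 8886, brighter than its own, with a median of 91.2, while those nearest to the LOC100652730 spot read at most 50.6. A second probe of LOC100652730 went from 74.7 to 2022 (5.56 ± 0.22). RP11-61L23.2 (chr7:143509064-143533301) went from 38.2 to 1110 (5.66 ± 0.26) at one probe and only from 28.8 to 77.5 (2.23 ± 0.30) at the other, both measured on both arrays. AW450413 (chr7:25895918-25896427) went from 81.4 to 1654 (5.14 ± 0.22). The second probe of RP11-61L23.2 thus rose by less than the first, and that of uc.392, dim with DMSO, has only a lower limit.

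Among the falls, RP11-150O12.3 (chr8:37455153-37456296) had a signal of 85695 with DMSO and 20.4 with LBH589 (-11.24 ± 0.30), on a spot whose nearest neighbours had a median of 66.7. RP11-150O12.6, of the same cluster of GENCODE transcripts, went from 8526 to 99.7 (-5.62 ± 0.21). RP11-150O12.1 was read by 3 probes, all of them dim after LBH589, and was at least 6.16-fold, 1.94-fold and 7.33-fold lower. The 3 names of this locus were lower together. Of the other members of this cluster of 7 probes, XLOC_007053 went from 135 to 21.1 (-1.88 ± 0.30), and an ultraconserved region (chr8:37250469-37250735) was the 1 higher probe, at 7.34 and 128, at least 10.5-fold higher.

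On chromosome 11 a group of overlapping transcripts read on the plus strand was lower. The GENCODE transcript at chr11:110225924-110252710 went from 7409 to 17.3 (-7.94 ± 0.34), AK094117 from 12977 to 111 (-6.08 ± 0.21) and AK124179 (chr11:110199130-110278336) from 6138 to 53.4 (-6.05 ± 0.22). They overlap one another, so they are readings of 1 locus. The nearest listed mRNA was RDX on the other strand, which encodes radixin, a linker of actin to the cell membrane. RDX read 565 and, dim after LBH589, 11.3. The distances were 31693 to 58487 bases.

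On chromosome 1, BX284650.1 was lower at probe 1, from 3509 to 54.2 (-5.22 ± 0.22), and at probe 2, from 3250 to 48.1 (-5.28 ± 0.23), and RP11-495P10.2 from 4310 to 65.5 (-5.24 ± 0.22). The values differ by less than their spot errors, and the probes share 51 bases, so these 3 values do not tell the loci apart. A further probe of BX284650.1 (chr1:143743240-143744355), without the shared stretch, went from 2498 to 99.4 (-3.85 ± 0.21). XLOC_002730 (chr3:96336527-96337039) went from 9466 to 125 (-5.45 ± 0.21), but its spot adjoins that of XLOC_006459, marked as not uniform with 8017 on the DMSO array. A GENCODE transcript at chr3:125985639-126010122 went from 2148 to 49.95 (-4.63 ± 0.22), and its second probe was at least 4.18-fold lower, dim after LBH589.

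The ranks above hold RNAs measured on both arrays. Among those that were dim on 1 side, the following were chosen after their values were seen, for the size of their limits. LOC285593 (chr5:173006646-173008614) read 4991 with DMSO and 3.07 with LBH589, at least 198-fold lower. AC010090.1 (chr2:145324002-145337001) read 727 and 3.46, at least 28.8-fold lower. In the other direction ERICH1-AS1 (chr8:833198-982931) read 4.25 and 1250, at least 102-fold higher, while its other probe (chr8:687742-860575) read 8.17 and 50.2, at least 4.10-fold higher. CTB-12O2.1 (chr5:151338459-151650006) read 10.3 and 701, at least 57.3-fold higher, and its other probe was at least 9.68-fold higher. SMPD4P1, a pseudogene transcript, read 9.17 and 646, at least 52.8-fold higher. None of these spots has a marked spot among its 6 nearest.

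The second largest fall measured on both arrays, that of XLOC_005361, lies in a bright strip at the edge of the DMSO array. Its spot gave 68651 with DMSO and 160 with LBH589 (-7.95 ± 0.21) and was not marked by the software. It stands in the outermost column, at row 263, among 6 spots between rows 259 and 265 that gave 68651 to 157091 with DMSO and 18.6 to 160 with LBH589. The software marked 4 of the 6 as not uniform. One of the 6 is a control probe that is printed on 34 other spots, which read 4.25 to 15.7 on the DMSO array, while in the strip it read 109588. The spot in the next row, also of an intergenic lncRNA, read 5.38. The part of the strip in the value of XLOC_005361 was not tested. The counts of all intergenic probes without the probes that have a marked spot among their 6 nearest were 471 and 292 at 2-fold and 254 and 111 at 5-fold, an exclusion chosen after seeing the data.

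**Figure D2:**
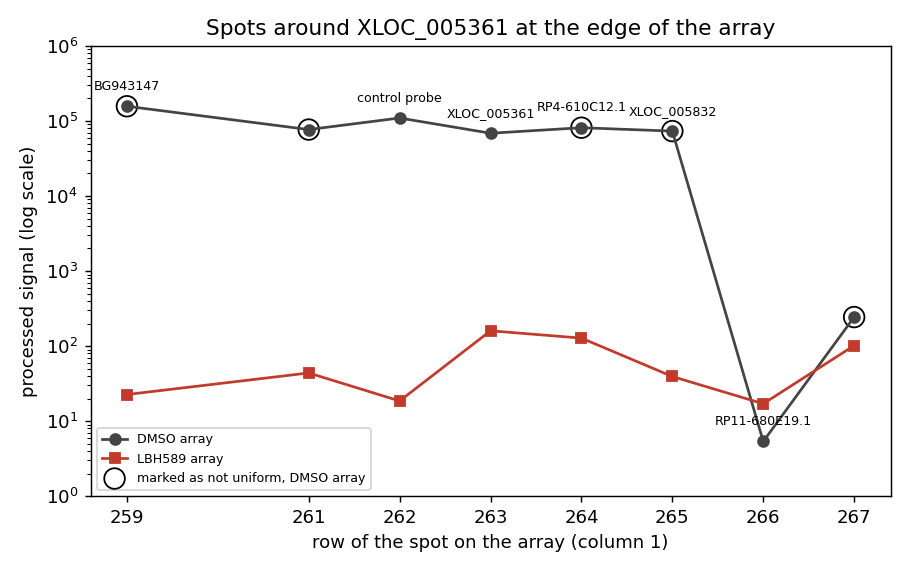
Signal (y axis, log scale, arbitrary units) of the spots in the outermost column of the DMSO array by row (x axis), for both arrays, with rings around spots marked as not uniform on the DMSO array. The 6 spots of rows 259 to 265 read 68651 to 157091 with DMSO and at most 160 with LBH589, and the spot of XLOC_005361 is one of them.

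Genes of 5 lists of better known noncoding RNAs were read next. The lists hold microRNA hosts, hosts of small nucleolar and other small RNAs, RNAs of an imprinted locus on chromosome 14, neighbours of homeobox and other developmental genes, and RNAs associated with cancer. Only names with an intergenic probe in the tables could be read, and a gene missing there is not analysed here. Since the tables list differences only, a list can show which of its genes moved in which direction but not how many did not. The lists were written with earlier results of these data known, so a direction shared within a list is a description with no test. All 1161 unmarked intergenic probes, those of the lists included, kept their sign under each scaling tried, as did the 1159 that the deposited table holds. Their smallest rise was 1.86 and their smallest fall -1.35, while the scaling removes a shift of 0.80. The kept signs thus follow from the choice of probes and are no check of direction.

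The largest change in the lists was that of a microRNA host, MIR7-3HG, which carries a copy of miR-7. It was not well above background with DMSO at probes 1 and 2, at signals of 4.44 and 4.25, and read 5151 and 4241 after LBH589, at least 421-fold and at least 346-fold higher. Probe 3 read 358 with DMSO and 9275 with LBH589, a difference of 5.50 ± 0.20. All 3 probes were well above background after LBH589, and probe 3 also with DMSO. LINC00478, now named MIR99AHG, hosts miR-99a, let-7c and miR-125b-2, and was lower at all 5 of its probes. Their signals went from 192 to 16.2, from 282 to 21.6, from 125 to 15.8, from 375 to 7.06 and from 341 to 17.5, with those at 16.2, 15.8 and 7.06 no longer well above background. These 3 were at least 6.81-fold, 4.54-fold and 14.8-fold lower, the others differed by -2.90 and -3.48, and some of the probes share sequence. MIR143HG, now CARMN, went from 4.25 to 20.2 at 1 probe, with a limit below 2-fold.

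The mature microRNAs of both hosts are shown from RefSeq (GRCh38.p14), with the seed, bases 2 to 8, in capitals. The array did not measure them, and the 4 seeds differ from one another.
hsa-miR-7-5p: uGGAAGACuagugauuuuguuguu
hsa-miR-99a-5p: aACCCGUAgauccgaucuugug
hsa-let-7c-5p: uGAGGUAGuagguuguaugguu
hsa-miR-125b-5p: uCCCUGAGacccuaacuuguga

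Of the list of 19 small RNA hosts and small noncoding RNAs, 6 genes had intergenic probes, and all 8 probes were measured on both arrays. Higher were SNHG12, from 101 to 586 (3.34 ± 0.21), SNHG7, from 376 to 1103 (2.35 ± 0.20), and SNHG5, from 194 to 449 (2.01 ± 0.21), all of which release small nucleolar RNAs from their introns. SNORD3A, the U3 small nucleolar RNA that takes part in ribosomal RNA processing, went from 704 to 3652 (3.17 ± 0.20). VTRNA1-1, a vault RNA, went from 33.2 to 77.1 (2.01 ± 0.28). C17orf76-AS1, now SNHG29, also a snoRNA host, was lower at its 3 probes, from 13918 to 2134, from 5214 to 726 and from 715 to 86.0. Past 2-fold were 5 probes higher and 3 lower (12.3% and 10.2% of all probes were), with a median difference of 2.01.

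The listed RNAs of the imprinted locus on chromosome 14 were higher. This locus expresses its noncoding RNAs from the maternal copy, MEG3 first among them. Of 7 listed names 5 had probes, and all 10 probes were higher, 7 of them past 2-fold (12.3% of all probes were), with a median of 2.55 (2.11 with dim sides at their limit). MEG3 read 32.6 with DMSO and 75.8 with LBH589 at the probe measured on both arrays (2.01 ± 0.28), and 15.3 and 56.4, 7.48 and 20.9, and 4.25 and 21.9 at the others. The MEG3 probes that read 75.8 and 56.4 with LBH589 share 51 bases and repeat a reading. AL132709.5, downstream of MEG3, went from 72.6 to 551 (3.72 ± 0.22), from 294 to 905 (2.42 ± 0.21) and from 4.25 to 20.4. AL132709.8 went from 157 to 356 (1.98 ± 0.21) and AL132709.1, on the other strand, from 65.5 to 184 (2.29 ± 0.23). DIO3OS, at the far end of the locus, was not above background with DMSO at 4.25 and read 72.3 after LBH589, at least 5.90-fold higher. The 3 probes not past 2-fold were dim with DMSO, 2 of MEG3, at least 1.79-fold and 1.71-fold higher, and 1 of AL132709.5, at least 1.67-fold higher. At 5 of the 10 probes both arrays were well above background.

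Of 12 listed names of neighbours of homeobox and developmental genes 8 had probes, 2 of them names of 1 gene, OTX2-AS1. All 10 probes were lower at their own value, 7 of them past 2-fold (10.2% of all probes were), with a median of -2.90 (-1.98 with dim sides at their limit). HOTAIR, which is transcribed within the HOXC cluster and binds chromatin-modifying complexes, went from 202 to 14.5, at least 7.98-fold lower, and from 98.7 to 3.54, at least 3.91-fold lower. OTX2-AS1, opposite the gene of the OTX2 homeobox factor, went from 539 to 11.3, at least 21.3-fold lower, and from 83.1 to 3.22, at least 3.29-fold lower, and OTX2OS1, an older name of it, from 30.8 to 5.72, at least 1.22-fold lower. HOXB-AS5, now PRAC2, went from 246 to 16.1 (-3.14 ± 0.35). MEIS1-AS3 went from 424 to 55.2 (-2.14 ± 0.22) and LEF1-AS1 from 354 to 51.1 (-1.99 ± 0.22). PROX1-AS1, at 37.3 and 3.08, also did not reach a limit of 2-fold. For DGCR5, at 24.3 and 4.15, no fold can be given.

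Of 17 cancer-associated RNAs 9 had probes, 31 in all, 2 higher and 29 lower. Past 2-fold were 2 higher and 21 lower (12.3% and 10.2% of all probes were), and the median was -2.32 (-1.96 with dim sides at their limit). PVT1, downstream of MYC, gave 12 of the probes, all lower, of which 9 were measured on both arrays, from -4.50 to -2.32. They included 6678 to 654 (-2.55 ± 0.20), 1391 to 35.2 (-4.50 ± 0.24), 960 to 40.7 (-3.76 ± 0.23) and 256 to 29.4 (-2.32 ± 0.25). Of these PVT1 probes 4 share 47 to 50 bases with one another and repeat a reading. CRNDE was lower at 3 probes by almost the same amount, of which the brighter pair share 29 bases, from 15897 to 2299 (-1.99 ± 0.20), from 6437 to 953 (-1.96 ± 0.20) and from 117 to 16.6 (-2.02 ± 0.34). PCBP1-AS1 was lower at 8 probes, of which 975 to 121 (-2.21), 528 to 63.4 (-2.26) and 646 to 73.3 (-2.34) were measured on both arrays. The other 5 were dim after LBH589, with limits from 1.20-fold to 3.62-fold. A marked spot adjoins 2 of its dimmer probes.

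The remaining names of that list were dim on 1 side. TMEM161B-AS1 read 75.6 with DMSO and 3.22 with LBH589, at least 2.99-fold lower. The others among the lower names did not reach a limit of 2-fold. LINC00152, now CYTOR, read 49.7 and 9.04, at least 1.97-fold lower, and LINC00473 31.9 and 3.74, at least 1.26-fold lower. LINC00116, now MTLN, encodes a small mitochondrial protein despite its name and read at most 37.2 with DMSO, with limits of at most 1.47-fold. No fold can be given at its probe that read 22.3 with DMSO and 4.30 with LBH589. FER1L4, a pseudogene transcript, read 4.25 and 72.0 and was at least 5.88-fold higher. LINC00511 read 8.82 and 28.7 and was at least 2.34-fold higher.

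**Figure D3:**
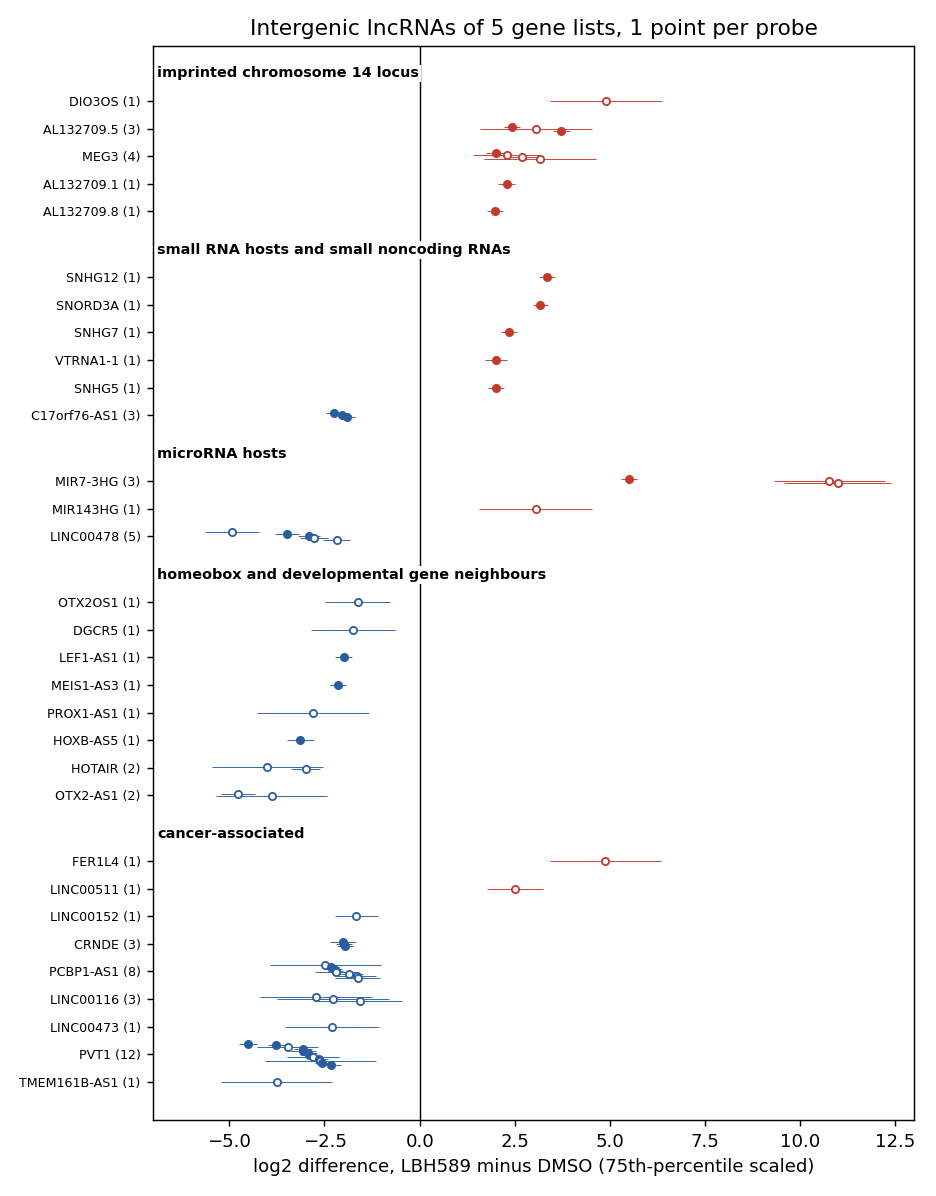
log2 difference, LBH589 minus DMSO (x axis), of each probe of the 5 gene lists, by gene (y axis, number of probes in parentheses). Filled points were well above background on both arrays, open points on 1, and lines give the spot error. Every chromosome 14 probe lies to the right of 0 and every probe of the homeobox neighbours to the left.

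Several probes per name gave a check of a reading, within 1 pair of arrays. Of the 98 names with more than 1 probe, 55 had all probes higher, 35 all lower and 8 some of each. A name enters with several probes only where the tables list them, so agreement is in part fixed by the choice. Among the 24 names with every probe measured on both arrays and 1 direction, the probes of a name spanned a median of 0.62 on the log2 scale, from 0.03 to 5.21.

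Probes that share at least 20 bases formed 53 pairs, all in the same direction, with a median gap of 0.35. The gap was 0.32 for the 35 pairs of 1 name and 0.41 for the 18 pairs of different names. Probes of 1 name without such a stretch formed 274 pairs, of which 261 had the same direction, with a median gap of 0.62. Names with many probes, such as PVT1 with 12 and PCBP1-AS1 with 8, give more of these pairs and weigh more in the counts and gaps. These gaps take dim spots at their own value, and the widest of either kind, in TMEM191A and RP11-25I15.2, rest on such spots. LINC00237 shows a wide gap in spite of 52 shared bases, at 98.9 and 15.6 for probe 1 (-1.87 ± 0.36) and 71.5 and 3.27 for probe 2 (-3.65 ± 1.46), where probe 2 was dim after LBH589.

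Of the 8 names with both directions, RP11-693N9.2 was the only one whose probes were all measured on both arrays. Probes 2 and 3 went from 1002 to 83.6 (-2.78 ± 0.21) and from 207 to 16.97 (-2.81 ± 0.33), and probe 1 went from 23.2 to 122 (3.19 ± 0.34). The annotated transcripts of the 3 probes overlap on the minus strand of chromosome 11 and differ in their start or end. XLOC_002952 was lower at 4 of 5 probes, as from 1779 to 235 (-2.12 ± 0.20), and higher at 1, from 61.8 to 138 (1.96 ± 0.23). TPTE2P6 read 11823 and 1455 at one probe and 4.25 and 16.2 at the other, and LRRC37BP1 166 and 29.1 at one and 13.9 and 43.1 at the other. In TPTE2P6, LRRC37BP1, LOC100286793, XLOC_006350, RP11-25I15.2 and RP11-327J17.3 the higher probe was well above background only after LBH589. That probe was at least 1.33-fold higher in TPTE2P6 and at least 3.52-fold higher in LRRC37BP1.

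**Figure D4:**
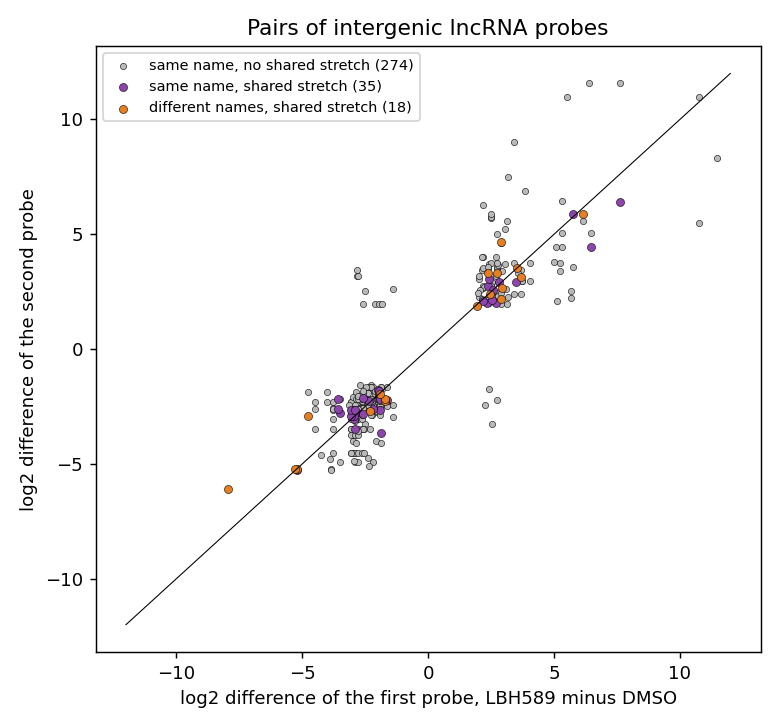
log2 difference of one probe against that of the other for pairs of intergenic lncRNA probes, LBH589 minus DMSO on both axes, with pairs that share at least 20 bases in purple (same name) or orange (different names) and other pairs of the same name in grey, and the line of equal values. All 53 sharing pairs lie in the quadrants of equal direction, and 261 of the 274 other pairs do.

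Members that lie near each other on the genome formed 119 groups of at least 2 names with gaps of at most 200 kb, and 9 groups of at least 4 names. On chromosome 7 (chr7:130538479-130792858), 9 probes of 5 names were all lower, 4 of them measured on both arrays, from -2.20 ± 0.21 (AC058791.2, from 1744 to 218) to -1.91. The other 5 were dim after LBH589, and for AC016831.7, at 24.7 and 3.18, no fold can be given. Among the probes measured on both arrays, that of FLJ43663 shares 51 bases with one of AC058791.2 and repeats its reading. Another pair of AC058791.2 probes also shares 51 bases, so the names and probes of this group are not separate readings. On chromosome 5 (chr5:177109295-177490591), 5 probes of 4 names were all higher, 3 of them measured on both arrays, with RP11-1101H11.1 at 13.7 and 263, at least 21.4-fold higher, and RP11-423H2.1 from 308 to 1903 (3.43 ± 0.21). At the HOXC cluster (chr12:54356096-54496483) the 5 probes of 4 names, HOTAIR among them, were all lower, and at the chromosome 14 locus (chr14:101292445-101543106) the 9 probes of 4 names were all higher. On chromosome 9 (chr9:131963594-132275965) 6 of 7 probes were lower, 4 of them of LOC100506190, among which a pair shares 51 bases.

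Other groups were mixed. On chromosome 7 (chr7:63361201-63545179), 4 of 5 probes of 4 names were higher and 1 was lower. Near the centromere of chromosome 1 (chr1:143188795-143916090), 12 of 19 probes of 9 names were higher and 7 lower, and at chr1:149230716-149820591 2 of 9 were higher. These regions of chromosome 1 are rich in duplicated sequence, and 23.2% of all intergenic probes list other transcripts that they may also read. Leaving such probes out, 71 were at least 5-fold lower, where 115 were with them.

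For 225 of the 1161 unmarked probes, of 187 names, an mRNA listed in the study's mRNA tables lay within 100 kb, and the nearest one is given. The direction was the same in 143 (63.6%). Within 50 kb it was the same in 91 of 130 (70.0%), and within 10 kb in 44 of 51 (86.3%). Within 10 kb it was the same in 25 of 28 pairs on the same strand and in 19 of 23 on opposite strands. Of the listed mRNA probes 51.2% were higher, and of the intergenic probes 52.9%. Both sets were selected on the same arrays, and pairs that share a locus or an mRNA are not independent, so the shares are descriptions with no test.

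Within 10 kb, with dim spots at their own value, both were higher in 20 pairs and both lower in 24. The lncRNA was higher and the mRNA lower in 6, and the reverse held in 1 pair only. That 1 pair was XLOC_005361, on the bright strip, with LCA5, a ciliary gene 199 bases away on the other strand, which read 4.25 with DMSO and 36.7 with LBH589.

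The closest pairs were the following. RP11-399O19.8 lies 51 bases from FAS, the gene of a death receptor, and read 56.2 and 7.38, while FAS read 539 and 7.13, both dim after LBH589. A GENCODE transcript at chr12:3150603-3154116, 761 bases from TEAD4, the gene of a Hippo pathway transcription factor, went from 2560 to 154 (-3.25 ± 0.21) and TEAD4 from 658 to 70.4 (-2.43 ± 0.22), both lower and both measured on both arrays. XLOC_002701 read 21.7 and, dim after LBH589, 3.88, so that no fold can be given. It lies 129 bases from PROK2, the gene of the secreted factor prokineticin 2, at 222 and, also dim after LBH589, 10.8. XLOC_012467 read 36.6 and, dim after LBH589, 5.00 at 665 bases from MSL1, which encodes a subunit of a histone acetyltransferase complex, at 180 and 19.7.

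Among higher lncRNAs, AK131521 went from 1592 to 5575 (2.61 ± 0.20), 437 bases from IGFBPL1, a gene related to those of the insulin-like growth factor binding proteins, at 27.2 and 219. XLOC_005622 read 8.40 and 33.1 at 187 bases from MYLIP, the gene of a ubiquitin ligase that acts on the LDL receptor, at 370 and 3592. AF041410 read 6.50 and 17.9 at 1003 bases from KLC3, a kinesin light chain gene, at 312 and 1760. Both XLOC_005622 and AF041410 were dim with DMSO, so the sizes of their rises are not given. In contrast, XLOC_009819 went from 71.4 to 232 (2.50 ± 0.22). SLC6A15, a neutral amino acid transporter gene 51 bases away on the other strand, read 98.7 and, dim after LBH589, 15.0. LOC284023 went from 756 to 2082 (2.26 ± 0.20) while CHD3, the gene of a chromatin remodeler of the deacetylase complex NuRD, 565 bases away, went from 257 to 33.2 (-2.15 ± 0.25).

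For the named lncRNAs above, OTX2 itself went from 559 to 48.9 (-2.72 ± 0.22), in the same direction as OTX2-AS1. MYC, 53099 bases from the nearest PVT1 transcript, went from 6867 to 422 (-3.23 ± 0.20). HMlincRNA552, which lies between them, read 25.4 and, dim after LBH589, 3.05, so the size of its fall is not given. HOXC9 near HOTAIR read 32.1 and 3.55 and HOXC4 45.2 and 4.66, both dim after LBH589, with LOC100240734 nearby going from 1073 to 126 (-2.30 ± 0.21) and LOC100240735 from 349 to 50.6 (-1.99 ± 0.22).

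Other named lncRNAs also had a nearest listed mRNA in the same direction. LPCAT1, an enzyme gene of phospholipid synthesis 81360 bases from RP11-325I22.2, went from 43.9 to 109 (2.12). Also higher with their neighbours were FAM115C, 81891 bases from RP11-61L23.2 (3.16), and LOC100131094, 83157 bases from MIR7-3HG (1.92). So were KIAA1984, 68154 bases from SNHG7 (1.84), and NDUFA2, a gene of respiratory complex I 63491 bases from VTRNA1-1 (2.23). CENPV, a centromere protein gene 85540 bases from C17orf76-AS1, was lower with it, from 6917 to 835 (-2.25). Of the names with 3 or more probes, TMEM191A was higher and PI4KA read 9.61 and 28.4, and XLOC_004244 was higher and LOC100506688 read 4.25 and 16.2, both mRNAs dim with DMSO, so their sizes are not given.

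The opposite held for others. MXD1, the gene of a MYC antagonist that shares its partner MAX, read 21.0, dim with DMSO, and 82.6 while PCBP1-AS1 was lower. PRODH, the gene of proline dehydrogenase 61722 bases from DGCR5, went from 153 to 568 (2.69). DGCR5 was listed as lower, but it was dim after LBH589 and no fold can be given for it. GMEB1, 86871 bases from SNHG12, read 97.1 and, dim after LBH589, 8.61 while SNHG12 was higher. KLHDC7B near XLOC_014288 read 29359 and 184 (-6.52) while the 3 probes of XLOC_014288 were higher, and ARSG, a sulfatase gene, was lower (-2.27) near the higher XLOC_012288. FAM126A was higher (3.39) near AC005682.5, which was lower at 3 probes, all dim after LBH589. RP11-693N9.2, with CASP12 lower (-3.10), and RP11-327J17.3, with NR2F2 at 40.8 and 3.20, dim after LBH589, had probes in both directions.

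Further pairs were chosen for mention after their values were seen. MTE, a metallothionein pseudogene transcript, went from 2407 to 7520 (2.44 ± 0.20) and from 189 to 742 (2.77 ± 0.21), and MT1X, a metal-binding metallothionein gene 4706 bases away, from 914 to 4566 (3.12 ± 0.20). XLOC_009361 went from 30.1 to 94.9 (2.45 ± 0.29) at 2109 bases from CDKN1C, the gene of the cell cycle inhibitor p57, which went from 152 to 756 (3.11 ± 0.21). XLOC_013480 went from 849 to 56.0 (-3.12 ± 0.22), 55938 bases from NKX2-2.

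**Figure D5:**
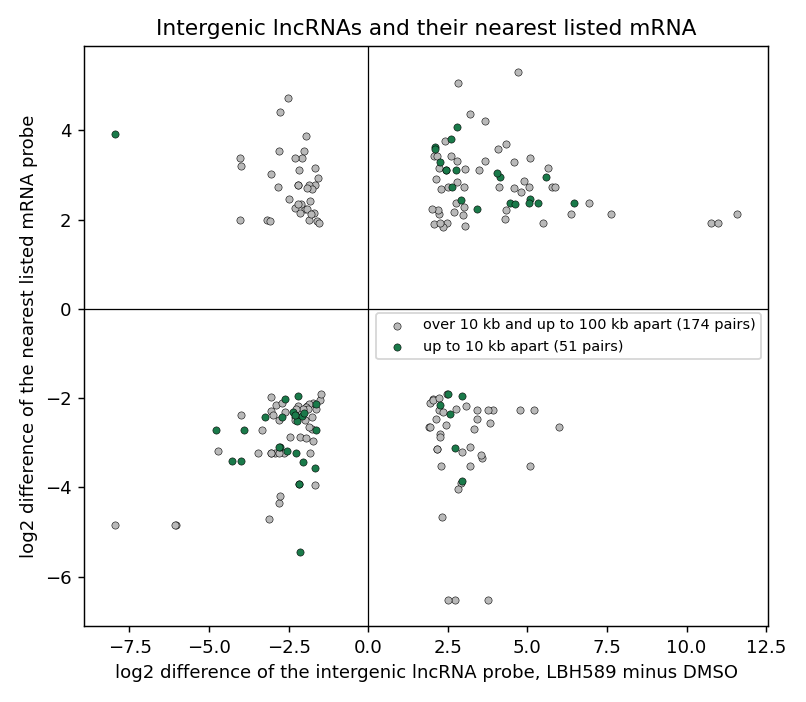
log2 difference of the intergenic lncRNA (x axis) and of its nearest listed mRNA within 100 kb (y axis), LBH589 minus DMSO, with pairs within 10 kb in green and farther ones in grey. Of the pairs within 10 kb, 44 of 51 lie in the quadrants of equal direction, and the single pair with a lower lncRNA and a higher mRNA is that of XLOC_005361.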

How the data were processed

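For each of the 2 arrays the authors deposited the scanner output of Agilent Feature Extraction (11.0.1.1 per the file headers, 10.7.3.1 per the submitters' processing notes), in which each spot has an intensity after subtraction of local background, its error and, as deposited, marks for outliers and for signal over background, each a score of 0 or 1. A table of processed log2 values was deposited as well, normalized in a way not given in the sources used here and used as an alternative. From the deposited intensities, spots marked as not uniform or as population outliers were left out, log2 processed signal was set against the 75th percentile of its array over 58921 non-control probes, and LBH589 minus DMSO was taken (Python 3.11.15, numpy 2.4.6, pandas 2.3.3, matplotlib 3.10.9). No probe has a test, since each condition has 1 array. The number of arrays limits the precision.

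Names, class, hg19 positions and probe sequences came from the study's tables of changed lncRNAs, of which the 1406 higher and 1363 lower listed rows were held; other rows were not used here, nor were the authors' fold changes. Of the 1008 names 135 matched RefSeq (GRCh38.p14), used for current names and microRNAs. The text names the 10 largest rises and 10 largest falls, 1 probe per name, measured on both arrays, the probes of the 5 lists, names with 3 or more probes or both directions as groups, and the nearest listed mRNA of these and of the 5 closest pairs per direction. The probes, the lists and this rule were chosen with earlier results of these data known. Alternatives were other scalings, normexp with offset 50 (limma 3.58.1, R 4.3.3; on median spot signals, the mean being absent), stricter filters and the deposited table. The fold rule was tested on simulated data.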

Additional observations from a re-analysis of the deposited data

Results flagged for a closer look

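Among the higher intergenic lncRNAs, 2 lay on spots that the scanner software marked as not uniform on the LBH589 array and were left out of the counts past a fold and of the median differences. XLOC_004991, on chromosome 5, read 44.2 with DMSO and 95382 with LBH589, a difference of 11.88 on the log2 scale with the mark ignored. XLOC_001969, on chromosome 2, read 57.1 and 477, a difference of 3.86. Each exceeded its own DMSO signal, and neither has a second probe among the unmarked intergenic lncRNAs. The part of the mark in these values was not tested.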

How the results depend on the processing

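No paired analysis was possible because each condition has 1 array. No direction was reversed: in 435 values of 87 named probes under the alternatives, 0 changed sign and 151 moved by more than the spot error. The probes were chosen for large differences on these arrays, so the kept signs are no check of direction. With no scaling, which moves the median of all probes to -0.67, 133 intergenic probes were at least 5-fold higher and 273 lower, and the medians were 2.12 and -2.96. Normexp of median spot signals with quantile normalization gave 94 higher and 39 lower at 5-fold. Probes measured on both arrays alone gave 259 higher and 190 lower at 2-fold, 166 higher at 5-fold and a median of 2.57 for the higher. Dim spots at their own value gave 547 lower at 2-fold and 495 higher and 220 lower at 5-fold. Without probes that list other transcripts 71 were 5-fold lower. The deposited table gave a median of 2.67 for the higher probes. Quantile normalization, the percentile over probes measured on both arrays, marked spots kept and distinct names left each count within 1.5 times the reported one. Signal near background limits most values.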

Other observations

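Of the lower intergenic lncRNAs, 7 lay on spots marked as not uniform on the DMSO array. With the marks ignored, LINC00174 read 31069 with DMSO and 1530 with LBH589 (-3.55), XLOC_012621 2334 and 65.1 (-4.37), and XLOC_006459 8017 and 17.95 (-8.00). A GENCODE transcript on chromosome 20 read 1426 and 59.1 (-3.80). BG943147 (-11.96), XLOC_005832 (-10.06) and RP4-610C12.1 (-8.51) are the marked intergenic lncRNAs of the bright strip.

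Of further names with 3 or more probes, TMEM191A on chromosome 22 was higher at 4 probes, by 4.46 at the 1 measured on both arrays and at least 8.02-fold at the others. XLOC_012288 on chromosome 17 was higher at 3 probes, all dim with DMSO, at least 2.89-fold. LOC100506190 on chromosome 9 was lower at 4 probes, all measured on both arrays, from -2.82 to -2.06. XLOC_005110 on chromosome 5 was lower at 4, also all measured on both arrays, from -3.58 to -2.17. XLOC_003411 on chromosome 4 was lower at 6, of which 4 were measured on both arrays, from -2.88 to -1.90. Some probes of TMEM191A, LOC100506190 and XLOC_005110 share sequence with another probe of the same name. A marked spot adjoins 1 probe each of TMEM191A and XLOC_012288.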
